A study of Mus musculus with 12 samples.

Results

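The RNA of the MHC class II genes and of Ciita was followed in splenic follicular (FO) B cells that were left unstimulated or stimulated with IFNα, CpG or both. The 10 genes were chosen by name from the deposited table of 22561 genes: the classical class II chains H2-Aa, H2-Ab1 and H2-Eb1, the invariant chain Cd74, the peptide exchange chains H2-DMa, H2-DMb1 and H2-DMb2, their partners H2-Oa and H2-Ob, and the transactivator Ciita. All 10 passed the filter on low counts and are among the 9431 genes tested. The FO B cells were sorted from the spleens of 10-week-old C57BL6 mice, with no transgene or mutation in the labels, and each group holds 3 samples. Besides the unstimulated group, cells received for 12 h either IFNα (0.1 μg/mL), a type I interferon, or CpG (1 μg/mL), a short synthetic DNA that activates TLR9, or CpG + IFNα. The doses are those of the legend for these RNA data, while a supplementary legend gives a lower dose of CpG for the combination. The sources used here do not say whether the unstimulated cells were cultured for the same time, so that culture and stimulus cannot be told apart in comparisons with them. A deposited list of barcodes numbers the samples of each condition WT1 to WT3, but nothing says whether these are separate mice or cultures, and p-values therefore measure only the spread between these samples.

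MHC class II molecules are pairs of an α and a β chain that carry peptides from the endosome to the cell surface, where CD4 T cells read them. The invariant chain guides new pairs to the endosome and blocks their groove, H2-DM exchanges the remaining piece of invariant chain for peptide, and H2-O, which is made mainly by B cells, restrains H2-DM. Ciita does not bind DNA itself but is recruited to the X and Y boxes of class II promoters by the RFX, CREB and NF-Y factors that sit there. Resting B cells make class II constantly, and cells that become plasma cells are known to switch Ciita off.

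RNA was counted as unique molecular identifiers (UMIs) near the 3′ end of each transcript, so that counts do not grow with transcript length. Samples held 922450 to 2923865 counts in total, lowest in unstimulated cells and highest with CpG + IFNα. Levels are given in CPM, counts scaled to a common total of 1000000, after TMM normalization. All 9 genes of the B cell marker list were detected in each group, at low levels for some of them with CpG. Of the lists for other cells, T cell and NK cell markers summed to at most 5.30 and 1.22 CPM in any sample, and the 14 markers of myeloid and dendritic cells found in the table summed to between 28.0 and 55.2 CPM in unstimulated cells and between 13.4 and 26.2 CPM in the other groups. Of these, Lyz2 was at 2.63 to 9.55 CPM in unstimulated cells and at 0 in the other 9 samples. Not all of the list followed it. Adgre1 was at 0.875 to 3.18 CPM in unstimulated cells and 6.63 to 12.9 CPM with IFNα. Zbtb46 was at 1.81 to 4.38 CPM in unstimulated cells and 3.05 to 10.6 CPM with CpG. In this list 6 of the 14 markers had at most 3 counts in every sample. Erythroid genes varied from 4.95 to 342 CPM. Plasma cell markers summed to between 179 and 377 CPM over all samples. Of the 5 plasmacytoid dendritic cell markers, Siglech was at 0 in all samples, and Bst2, which interferon also induces in B cells, was at 64.1 to 143 CPM without IFNα and at 891 to 1232 CPM with it. Tcf4 was at 239 to 303 CPM in unstimulated cells, 418 to 440 CPM with IFNα and 149 to 163 CPM with CpG. Cox6a2 was higher with CpG, at 0 to 1 counts in unstimulated samples, 8 to 27 with CpG and 35 to 45 with CpG + IFNα. Ccr9 had 1 to 13 counts per sample. The 6 marginal zone B cell markers summed to between 223 and 229 CPM in unstimulated cells, 89.1 to 123 CPM with IFNα and 28.1 to 57.3 CPM in both groups with CpG. Dtx1, at 160 to 178 CPM in unstimulated cells and 36.6 to 43.1 CPM with CpG, weighs most in these sums. Cd1d1 was at 27.6 to 42.0 CPM in unstimulated cells and 0 to 0.707 CPM with CpG. Cd9 overlapped between these groups, at 9.55 to 10.8 CPM and 4.46 to 12.0 CPM.

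The promoters show what several of these genes have in common in sequence. RefSeq promoters on GRCm38.p6 were at hand for 7 of the 10 genes and not for H2-Ab1, Cd74 or Ciita. They were searched on both strands for AACNNATG, a core of the X box, and for GATTGG, the Y box that NF-Y binds, letters that were chosen after the sequences had been seen. Of the 27025 genes with a promoter of 300 bases in the table, 10.2% held the X letters and 18.2% the Y letters. Only 25 genes, or 0.0925%, held the X letters followed within 40 bases by the Y letters. H2-Eb1, H2-Ob, H2-DMb1 and H2-DMb2 were 4 of these, with 21, 19, 22 and 22 bases between the boxes. H2-Aa, H2-Oa and H2-DMa held the Y letters without the X letters, and no match says only that these letters were not in the window. The stretch from base -140 to base -21 before the RefSeq start is shown for 3 members with the pair of X and Y letters. It is also shown for 2 in which only the Y letters were matched. All are given 5′ to 3′ along the gene's own strand, with the X and Y letters in capitals. The spacing of the pair can be read directly from the first sequences. In H2-Eb1 the last capitals are a second Y box on the opposite strand.

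H2-Eb1, chr17:34305727-34305846, plus strand: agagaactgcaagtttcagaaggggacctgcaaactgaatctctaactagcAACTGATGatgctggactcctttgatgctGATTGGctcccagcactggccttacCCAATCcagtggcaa
H2-Ob, chr17:34238765-34238884, plus strand: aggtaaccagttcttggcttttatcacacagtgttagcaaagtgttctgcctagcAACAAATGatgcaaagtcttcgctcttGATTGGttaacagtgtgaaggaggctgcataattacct
H2-DMb2, chr17:34145109-34145228, plus strand: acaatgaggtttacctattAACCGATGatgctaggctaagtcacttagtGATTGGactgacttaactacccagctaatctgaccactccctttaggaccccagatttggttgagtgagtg
H2-Aa, chr17:34287844-34287963, minus strand: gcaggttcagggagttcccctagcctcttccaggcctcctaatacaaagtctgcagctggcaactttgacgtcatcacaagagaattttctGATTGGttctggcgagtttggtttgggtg
H2-Oa, chr17:34092239-34092358, plus strand: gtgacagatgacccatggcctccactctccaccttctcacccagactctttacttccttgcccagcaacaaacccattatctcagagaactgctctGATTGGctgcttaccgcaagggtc

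In unstimulated FO B cells the class II genes were among the most abundant RNAs. By mean CPM over all genes of the table, Cd74 ranked at place 3, H2-Aa at 8, H2-Ab1 at 13 and H2-Eb1 at 16. Together the 10 genes took 3.36% ± 0.142 (SD, n = 3) of all UMI counts in unstimulated cells and 2.38% ± 0.226 with IFNα. With CpG they took 0.105% ± 0.0159, against 0.0757% ± 0.00124 with CpG + IFNα. The lowest sample without CpG, IFNα replicate 2, was at 2.13% (exact 95% binomial interval 2.11 to 2.15), and the highest sample with CpG was at 0.124% (0.118 to 0.129). These intervals cover counting error only. The samples with CpG therefore lay far from those without it, and the difference between CpG and CpG + IFNα was the smaller one.

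**Figure D1:**
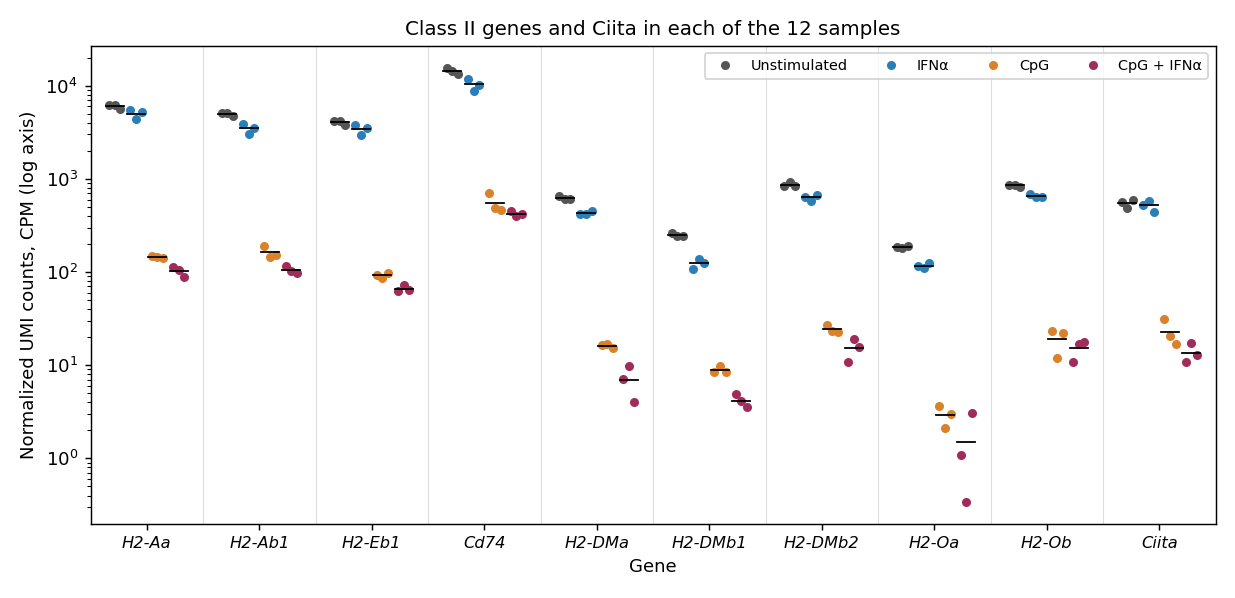
Normalized UMI counts (CPM, log axis) of the 10 genes in each of the 12 samples, coloured by group; black bars are the means of 3 samples. For every gene the 6 samples with CpG lie below the 6 without it, as for H2-Aa, where CpG samples are at 140 to 149 CPM and unstimulated samples at 5631 to 6257 CPM.

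The order of the genes was clear in unstimulated cells. Cd74 (13465 to 15600 CPM) stood above H2-Aa (5631 to 6257), H2-Ab1 (4670 to 5112) and H2-Eb1 (3816 to 4162), with no overlap between these neighbours. H2-DMb2 (833 to 920) and H2-Ob (824 to 868) did not differ beyond their spread, and were followed by H2-DMa (604 to 663), Ciita (491 to 589), H2-DMb1 (244 to 262) and H2-Oa (181 to 188). With CpG the order at the top was less distinct, since H2-Ab1 (146 to 190 CPM) and H2-Aa (140 to 149 CPM) overlapped. Cd74 (468 to 700 CPM) was still the highest and H2-Oa (2.12 to 3.66 CPM) the lowest.

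The main question of the design for these genes is what each stimulus, and their combination, does to the class II program. All 10 genes were lower with CpG, by 24.2-fold to 61.1-fold. With IFNα in addition to CpG, 8 of them were lower again at the adjusted p, by 1.3-fold to 2.18-fold, a count that was 4 to 8 under the alternatives tried. With IFNα alone, differences were at most 2.001-fold. DEGs were genes with an adjusted p under 0.1, from edgeR's quasi-likelihood test with Benjamini-Hochberg adjustment over all 9431 genes, and a fold change over 2. All 10 were down-regulated DEGs in CpG against unstimulated cells, where 25.5% of all genes tested were. All 10 were in CpG + IFNα against unstimulated cells, where 25.6% of all genes were, and in CpG + IFNα against IFNα, where 25.5% were. Over these 10 genes the log2 fold change had a median of -5.21 in CpG against unstimulated cells, -5.83 in CpG + IFNα against unstimulated cells and -5.36 in CpG + IFNα against IFNα, beside medians of all genes of -0.03, -0.01 and -0.07. The 10 log2 fold changes in CpG against unstimulated cells all lay within the lowest 1.75% of those of all genes. For each of the 10, the 6 samples with CpG lay below the 6 without it, as they did for 26.1% of all genes tested. In bulk RNA, fewer cells that express a gene and less RNA of it per cell cannot be told apart.

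Other transcripts of B cells moved with them. Of the 9 B cell markers, 7 were down-regulated DEGs with CpG (median log2 fold change of the list -2.51), and their summed level was 17397 to 19887 CPM in unstimulated cells, 16627 to 18619 with IFNα, 6422 to 6710 with CpG and 5771 to 5882 with CpG + IFNα. Ighm, the most abundant of them, was at 7369 to 8384 CPM in unstimulated cells and weighs most in these sums. The 2 that were not DEGs were Pax5 and Ighm. Fcer2a, the follicular B cell marker CD23, was at 1100 to 1441 CPM in unstimulated cells, 195 to 300.2 CPM with IFNα, 17.7 to 28.0 CPM with CpG and 6.84 to 10.3 CPM with CpG + IFNα. Cr2, the complement receptor CD21, was at 350.01 to 463 CPM in unstimulated cells and 56.7 to 98.1 CPM with IFNα, so that these markers were lower with IFNα alone too, where 2 of the 9 were down-regulated DEGs. The share of counts from the mitochondrial genome was 5.91% to 8.52% without CpG and 2.99% to 4.85% with it. The part of the B cell markers in the class II result was not tested. With the mitochondrial and rRNA genes left out, all 10 class II genes were again down-regulated DEGs.

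**Figure D2:**
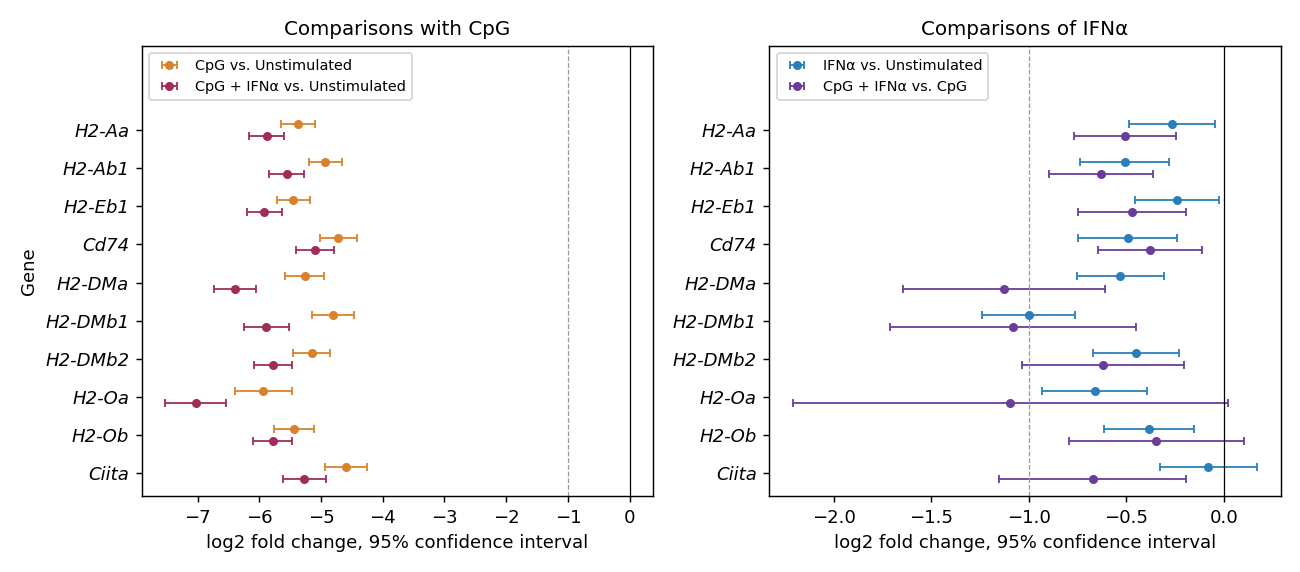
Log2 fold change of each gene with its 95% confidence interval (edgeR, 3 samples per group); the dashed line is at -1, the limit for DEGs. Left, both comparisons with CpG lie between -4.60 and -7.03; right, both comparisons of IFNα lie between -0.08 and -1.13, with the widest interval for H2-Oa.

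The classical chains H2-Aa, H2-Ab1 and H2-Eb1 form the peptide-binding molecules themselves. H2-Aa, the α chain of H2-A (chromosome 17, 34282744 to 34287823, minus strand), was at 6182, 6257 and 5631 CPM in unstimulated cells, 5413, 4385 and 5211 CPM with IFNα, 149, 146 and 140 CPM with CpG, and 112, 105 and 88.7 CPM with CpG + IFNα. All 4 groups were apart from each other. The level with CpG was 41.5-fold lower than in unstimulated cells (log2 fold change -5.38, SE 0.13, adjusted p = 6.12e-31).

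H2-Ab1, the β chain of H2-A (chromosome 17, 34257689 to 34269419, plus strand), was at 5112, 5104 and 4670 CPM in unstimulated cells, 3913, 3048 and 3497 CPM with IFNα, 190, 146 and 153 CPM with CpG, and 116, 102 and 98.4 CPM with CpG + IFNα. Again no groups overlapped, and the fold with CpG was smaller than for H2-Aa, at 30.4-fold lower (log2 fold change -4.93, SE 0.14). The ratio of H2-Ab1 to H2-Aa counts was accordingly 0.824 in unstimulated cells, 0.696 after IFNα, 1.12 after CpG and 1.04 after CpG + IFNα (geometric means, n = 3). On the log2 scale this ratio was -0.29 to -0.27 in unstimulated samples and 0 to 0.34 in CpG samples. An exact two-sided permutation test of 3 samples against 3 cannot go below p = 0.1, and no model was fitted to such ratios, which are given as a description.

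H2-Eb1, the β chain of H2-E (chromosome 17, 34305867 to 34316674, plus strand), carries the paired X and Y boxes shown above. It was at 4146, 4162 and 3816 CPM in unstimulated cells, 3808, 2929 and 3528 CPM with IFNα, 92.6, 87.0 and 97.5 CPM with CpG, and 63.3, 71.9 and 64.2 CPM with CpG + IFNα. Its ratio to H2-Aa was 0.671 in unstimulated cells, 0.683 after IFNα, 0.637 after CpG and 0.654 after CpG + IFNα. On the log2 scale these ratios overlapped between unstimulated cells (-0.59 to -0.56) and CpG (-0.74 to -0.52). H2-Ea, which encodes its α chain and is defective in C57BL6 mice, had at most 3 counts in any sample.

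H2-Eb2, a less studied β chain gene next to H2-Eb1 that is no member of the 10, was tested as another class II gene. It was at 82.1, 124 and 109 CPM in unstimulated cells, 146, 143 and 161 CPM with IFNα, 5.49, 7.78 and 4.95 CPM with CpG, and 1.62, 4.45 and 3.06 CPM with CpG + IFNα. Like the members it fell with CpG (log2 fold change -4.12, adjusted p = 1.4e-19). Unlike them, it was higher with IFNα alone (log2 fold change 0.52, SE 0.14, adjusted p = 0.00692), without passing the fold change of 2. Its promoter too is among the 25 with both boxes, which lie 21 bases apart. Of the 5 other class II genes listed, 3 were in the table and H2-Eb2 alone was tested. Btnl2 had at most 10 counts in any sample.

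Cd74, the invariant chain (chromosome 18, 60803848 to 60812652), was the most abundant class II RNA in every sample. It was at 15600, 14416 and 13465 CPM in unstimulated cells, 11838, 8867 and 10162 CPM with IFNα, 700, 484 and 468 CPM with CpG, and 449, 401 and 422 CPM with CpG + IFNα. CpG replicate 1 stood above the other samples with CpG. The level with CpG was 26.3-fold lower than in unstimulated cells (log2 fold change -4.72, SE 0.15), less than for H2-Aa, and the ratio of Cd74 to H2-Aa counts was 2.40 in unstimulated cells, 2.05 after IFNα, 3.73 with CpG and 4.17 after CpG + IFNα. On the log2 scale these ratios did not overlap between unstimulated cells (1.20 to 1.34) and either IFNα (0.96 to 1.13), where they were lower, or CpG (1.73 to 2.23), where they were higher. As a share of the counts of the 10 genes, Cd74 made up 44.1% ± 1.06 in unstimulated cells, 41.6% ± 1.28 with IFNα, 52.3% ± 3.67 with CpG (SD, n = 3) and 56.2% ± 2.23 after CpG + IFNα.

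The H2-DM chains exchange peptides in the endosome, with H2-DMa as α chain and H2-DMb1 or H2-DMb2 as β chain. H2-DMa (chromosome 17, 34119541 to 34139101) was at 662, 604 and 605 CPM in unstimulated cells, 424, 417 and 454 CPM with IFNα, 16.5, 16.97 and 15.3 CPM with CpG, and 7.03, 9.92 and 4.08 CPM with CpG + IFNα. The samples of the last group rest on 13, 29 and 8 counts. All 4 groups were apart, and the level with CpG + IFNα was 83.8-fold lower than in unstimulated cells (log2 fold change -6.39, SE 0.17).

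H2-DMb2 (chromosome 17, 34143307 to 34151555), the more abundant of the β chain genes, was at 839, 920 and 833 CPM in unstimulated cells, 642, 581 and 674 CPM with IFNα, 26.8, 23.3 and 22.8 CPM with CpG, and 10.8, 19.2 and 15.8 CPM with CpG + IFNα. H2-DMb1 (chromosome 17, 34153072 to 34160230) was at 262, 244 and 245 CPM in unstimulated cells, 108, 138 and 126 CPM with IFNα, 8.53, 9.90 and 8.42 CPM with CpG, and 4.87, 4.11 and 3.57 CPM with CpG + IFNα. The transcripts of these genes are 94.6% identical, and 14.5% of the windows of 81 bases, the length of a read, in the last 500 bases of H2-DMb1 also occur in H2-DMb2. Their counts are therefore uncertain with respect to each other. The ratio of H2-DMb2 to H2-DMb1 was 3.45 in unstimulated cells, 5.12 after IFNα, 2.72 after CpG and 3.58 after CpG + IFNα. On the log2 scale the ratio was 1.68 to 1.91 in unstimulated samples and 2.07 to 2.57 in IFNα samples, which did not overlap.

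H2-O restrains H2-DM and is formed by H2-Oa and H2-Ob. H2-Ob (chromosome 17, 34238903 to 34254414) was at 868, 863 and 824 CPM in unstimulated cells, 680, 644 and 633 CPM with IFNα, 23.2, 12.0 and 22.3 CPM with CpG, and 10.8, 16.8 and 17.8 CPM with CpG + IFNα. The 2 groups with CpG overlapped. H2-Oa (chromosome 17, 34092340 to 34095234) was at 186, 181 and 188 CPM in unstimulated cells, 116, 110 and 125 CPM with IFNα, 3.66, 2.12 and 2.97 CPM with CpG, and 1.08, 0.342 and 3.06 CPM with CpG + IFNα. It had the largest fold of the 10 with CpG, 61.1-fold lower than unstimulated cells (log2 fold change -5.93, SE 0.23). With CpG + IFNα it had 2, 1 and 6 counts, so that its fold against that group is the least certain.

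The antisense gene BC051537 spans H2-Oa on the opposite strand, and 36.7% of the windows of the last 500 bases of H2-Oa are shared between them. The sources used here do not state a strand setting for the counting, and without one the reads of the pair cannot be told apart. BC051537 had 11 to 20 counts in the unstimulated and IFNα samples and 0 in all 6 samples with CpG. Against the 3 counts per sample that a count of 0 allows, it was at least 7.69-fold lower with CpG and at least 10-fold lower with CpG + IFNα.

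The balance of H2-O to H2-DM, taken as the summed counts of their chains, was 0.597 in unstimulated cells, 0.648 after IFNα, 0.429 after CpG and 0.622 after CpG + IFNα. The log2 ratios were -0.76 to -0.73 in unstimulated cells, -1.83 to -0.88 with CpG and -0.96 to -0.17 with CpG + IFNα. The wide range with CpG comes from replicate 2, where H2-Ob had 17 counts.

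Ciita, the transactivator of all these genes (chromosome 16, 10480059 to 10528418), was at 561, 491 and 589 CPM in unstimulated cells and at 526, 582 and 444 CPM with IFNα. It was at 31.1, 20.5 and 16.8 CPM with CpG and at 10.8, 17.5 and 12.7 CPM with CpG + IFNα. Unstimulated and IFNα samples overlapped, as did the samples of both groups with CpG. The level with CpG was 24.2-fold lower than in unstimulated cells (log2 fold change -4.60, SE 0.17, adjusted p = 2.83e-24), and with CpG + IFNα it was 38.6-fold lower (log2 fold change -5.27, SE 0.17). The gene Dexi overlaps Ciita on the opposite strand, but none of the windows in the last 500 bases of Ciita occurs in another gene.

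IFNα alone gave 1 DEG among the 10 genes, where 8.6% of all genes tested were DEGs in either direction. This was H2-DMb1, 2.001-fold lower (log2 fold change -1.001, SE 0.12, adjusted p = 5.47e-09), which sits at the limit of the fold change. It was no longer a DEG when any of 9 of the 12 samples was left out, with a log2 fold change of -0.96 without Unstimulated replicate 1 and of -0.91 without IFNα replicate 1. With the counts of H2-DMb1 and H2-DMb2 summed, no member was a DEG. At an adjusted p under 0.1 without a limit on fold change, 8 of the 10 genes were lower with IFNα and none higher, where 24.5% of all genes passed in either direction. Their log2 fold changes were between -1.001 and -0.27, the median of the 10 was -0.47 and that of all genes -0.00114. H2-Oa (log2 fold change -0.66), H2-DMa (-0.53), H2-Ab1 (-0.51) and Cd74 (-0.49) followed H2-DMb1. This count was 7 to 9 under the alternatives, since H2-Aa (-0.27, adjusted p = 0.0803) and H2-Eb1 lay near the threshold. H2-Eb1 (-0.24, SE 0.11, adjusted p = 0.117) passed under 7 of 24 alternatives, with adjusted p from 0.0141 with scaling by library size alone to 0.353 without IFNα replicate 2. Ciita (-0.08, SE 0.12, 95% confidence interval -0.33 to 0.17, adjusted p = 0.717) did not pass under any of them. Without IFNα replicate 3, the value of Ciita was 0.0267.

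In CpG + IFNα against CpG, the comparison at the centre of the study, 2 of the 10 genes were DEGs, where 4.96% of all genes tested were in either direction. These were H2-DMa, 2.18-fold lower (log2 fold change -1.13, SE 0.26, adjusted p = 0.00146), and H2-DMb1, 2.11-fold lower (log2 fold change -1.08, SE 0.31, adjusted p = 0.0169). At the adjusted p alone 8 of the 10 were lower and none higher, where 15.4% of all genes passed in either direction, with a median log2 fold change of -0.63 beside -0.04 for all genes. That count was 4 with all counts thinned to the smallest total and 5 without CpG replicate 1, where Ciita (-0.38, adjusted p = 0.443) and Cd74 (-0.17, adjusted p = 0.523) no longer passed. H2-Oa (-1.09, SE 0.55, adjusted p = 0.227) and H2-Ob (-0.35, SE 0.22, adjusted p = 0.368) did not pass. For 7 of the 10 genes, all samples with CpG + IFNα lay below those with CpG, as they did for 16.8% of all genes tested. H2-Aa was 1.42-fold lower (log2 fold change -0.51, SE 0.13, adjusted p = 0.00499), and Ciita was 1.59-fold lower (log2 fold change -0.67, SE 0.24, adjusted p = 0.0578). Without CpG + IFNα replicate 3, neither H2-DMa (-0.88) nor H2-DMb1 (-0.997) was a DEG, and H2-Oa was (-2.10, adjusted p = 0.0459). With all counts thinned to the smallest total, H2-DMa was at -0.81 (adjusted p = 0.147).

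The effect of IFNα was then compared between cells with and without CpG, as the log2 fold change in CpG + IFNα against CpG minus that in IFNα against unstimulated cells. None of the 10 genes was a DEG for this difference by edgeR, DESeq2 or limma-voom, where 6.27% of all genes were by edgeR. At edgeR's adjusted p alone none of the 10 passed either, where 13.6% of all genes did. The largest differences were those of H2-DMa (difference -0.60, 95% confidence interval -1.16 to -0.03, adjusted p = 0.191) and Ciita (-0.59, -1.13 to -0.05, adjusted p = 0.171). For H2-Aa the difference was -0.24 (-0.58 to 0.10) and for Cd74 0.12 (-0.25 to 0.48). Differences within these intervals could not be resolved with 3 samples per group. Without CpG + IFNα replicate 2, the difference for H2-DMa was -1.01 with an adjusted p of 0.0567, and it was then a DEG. In that sample the most abundant gene, CT010467.1, took 2.88% of all counts. The most abundant gene took 1.16% to 3.75% in the other samples. Its part in this difference was not tested.

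The class II region lets the members be compared with the genes between them. On GRCm38, 8 of the 10 members lie on chromosome 17 between 34092340 and 34316674, a stretch of 224.3 kb that also holds or overlaps 8 other genes of the table, 6 of which were tested. Among these are Psmb8 and Psmb9, subunits of the immunoproteasome, and Tap1 and Tap2, which pump peptides for class I molecules. They sit between H2-DMb1 and H2-Ob. BC051537, whose reads may be mixed with those of H2-Oa since the strand setting is not known, is one of the 6. It had 0 counts in all samples with CpG and did not pass with IFNα (log2 fold change -0.36, adjusted p = 0.57). It is left out of the counts that follow. With CpG, 3 of the other 5 neighbours were down-regulated DEGs. These were Psmb9 (log2 fold change -1.75, SE 0.15), Tap1 (-1.59) and Tap2 (-1.39), smaller than for any class II member. Brd2 (-0.69) and Psmb8 (-0.54) stayed under the fold change of 2.

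With IFNα the neighbours that passed the test were higher and the members that passed it were lower. Psmb9 rose from 122 to 156 CPM in unstimulated cells to 311 to 376 CPM (log2 fold change 1.35, adjusted p = 8.4e-12), and Tap1 from 209 to 268 CPM to 626 to 633 CPM (1.38, adjusted p = 7.7e-13). At the adjusted p, all 5 neighbours other than BC051537 were higher with IFNα. All 5 were also higher in CpG + IFNα against CpG, where Psmb9 (2.07) and Tap1 (2.05) were DEGs.

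**Figure D3:**
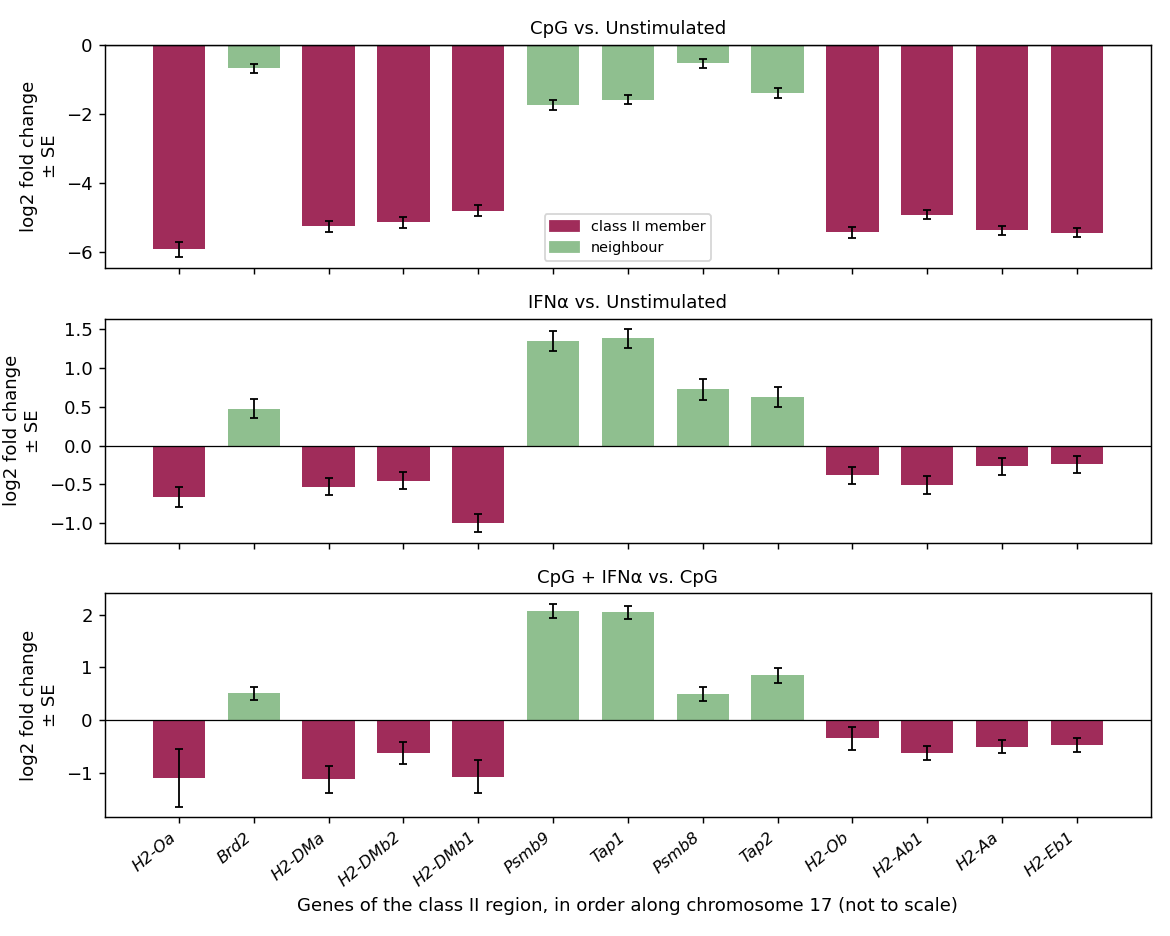
Log2 fold change ± SE (edgeR) of the class II members and of the 5 tested neighbours other than BC051537, in gene order along chromosome 17. The values of the members are below 0 in all 3 comparisons (not past the adjusted p for H2-Eb1 with IFNα, which passed under 7 of 24 alternatives, and for H2-Oa and H2-Ob in CpG + IFNα against CpG), whereas Psmb9, Tap1, Psmb8, Tap2 and Brd2 are below 0 with CpG and above 0 in both comparisons of IFNα; BC051537 is left out because it has 0 counts in both groups with CpG.

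A list of 10 class I genes was set beside the members, 4 of which, Psmb8, Psmb9, Tap1 and Tap2, are the neighbours just described. Nlrc5, the transactivator of class I genes and a relative of Ciita, was at 54.2, 53.0 and 64.8 CPM in unstimulated cells, 155, 157 and 160 CPM with IFNα, 16.5, 19.8 and 19.3 CPM with CpG, and 83.8, 104 and 95.3 CPM with CpG + IFNα. No groups overlapped. Its log2 fold change was 1.45 with IFNα, -1.63 with CpG and 2.35 in CpG + IFNα against CpG, while that of Ciita was -0.08, -4.60 and -0.67. Of the 10 class I genes listed, 3 were up-regulated DEGs with IFNα and 8 were down-regulated DEGs with CpG (median log2 fold change -1.33). In CpG + IFNα against CpG, 7 were up-regulated DEGs and all 10 were higher at the adjusted p. Of the 6 that are no neighbours, 1 was an up-regulated DEG with IFNα, 5 were down-regulated DEGs with CpG and 5 were up-regulated DEGs in CpG + IFNα against CpG. H2-K1, a class I heavy chain, was at 2079 to 2492 CPM in unstimulated cells, 4130 to 4809 CPM with IFNα, 959 to 1087 CPM with CpG and 2274 to 2410 CPM with CpG + IFNα. With both stimuli it thus lay within the range of unstimulated cells (log2 fold change 0.04, adjusted p = 0.745), where H2-Aa was 59.0-fold lower. H2-D1, another heavy chain, was lower with both stimuli (1409 to 1543 CPM) than in unstimulated cells (1738 to 1780 CPM; log2 fold change -0.26, adjusted p = 0.023). Of the 10 class I genes, 3 were lower and 3 higher at the adjusted p in this comparison, and none was a DEG. Together H2-K1, H2-D1 and B2m took 0.866% ± 0.0526 of all counts in unstimulated cells, 1.48% ± 0.0995 after IFNα, 0.397% ± 0.0125 after CpG and 0.832% ± 0.0484 after CpG + IFNα (SD, n = 3).

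**Figure D4:**
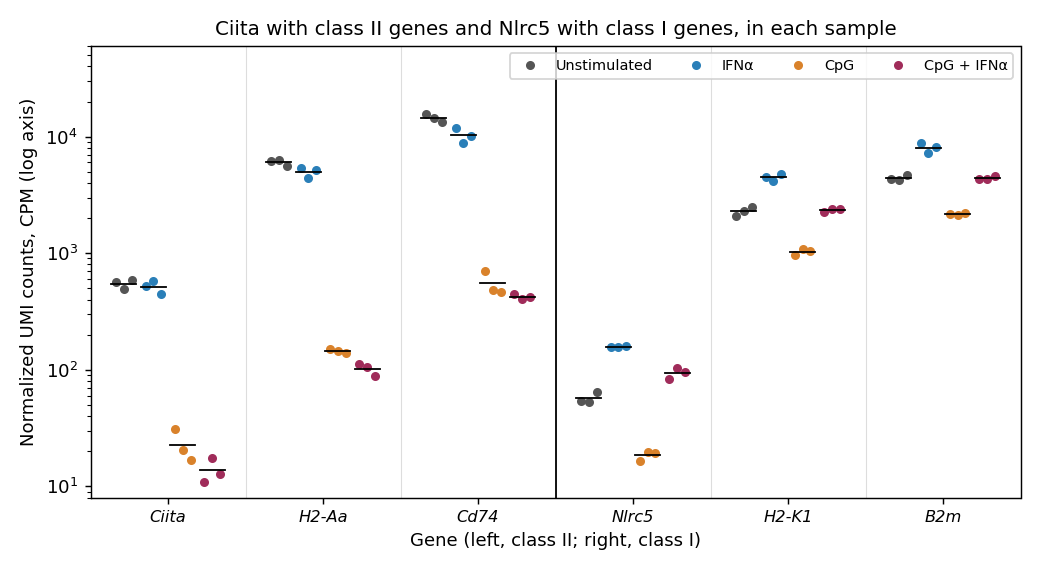
Normalized UMI counts (CPM, log axis) of Ciita, H2-Aa and Cd74 and of Nlrc5, H2-K1 and B2m in each sample, coloured by group; black bars are the means of 3 samples. CpG + IFNα samples lie near unstimulated samples for H2-K1 (2274 to 2410 against 2079 to 2492 CPM) and far below them for Ciita (10.8 to 17.5 against 491 to 589 CPM).

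The factors that recruit Ciita to class II promoters were tested as a list. Of Rfx5, Rfxank, Rfxap, Nfya, Nfyb, Nfyc and Creb1, all 7 were tested and none was a DEG with IFNα. Rfxank, a subunit of the RFX complex, was the DEG among them in each of the 3 comparisons of CpG or CpG + IFNα with cells without CpG. It fell with CpG, from 15.9 to 23.5 CPM to 5.94 to 10.6 CPM (log2 fold change -1.34, adjusted p = 0.000716). Creb1, a factor that binds the X box region, was at 109 to 111 CPM in unstimulated cells, 87.0 to 101 CPM with CpG and 69.8 to 74.9 CPM with CpG + IFNα. It was lower with CpG + IFNα than in unstimulated cells (log2 fold change -0.61, adjusted p = 5.1e-05) and than with CpG (-0.37, adjusted p = 0.0425), by less than 2-fold. Nfyc, a subunit of NF-Y, was higher with CpG + IFNα than in unstimulated cells (0.48, adjusted p = 0.041). The median of the list was 0.01 with CpG and -0.11 with CpG + IFNα.

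Among 12 genes known to act on Ciita transcription or to be linked to it, 11 were tested and 7 were down-regulated DEGs with CpG, none up-regulated. Among them were Irf1, an interferon-induced activator (log2 fold change -4.91), Irf2 (-2.40), Usf1 (-2.18), Spi1, which encodes PU.1 (-1.54), Socs1, a brake on cytokine signalling (-1.36), and Bcl6, a repressor of the germinal centre program (-1.16). Irf8 was at -0.08 (adjusted p = 0.49) and Pax5 at -0.63 (adjusted p = 3.2e-06), under the fold change of 2. Prdm1, which encodes the Ciita repressor Blimp-1, had 1 to 10 counts in every sample and was not tested.

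With IFNα, Socs1 (log2 fold change 2.09) was an up-regulated DEG and Irf4 (-1.10) a down-regulated one. In CpG + IFNα against CpG, Socs1 (3.19) and Irf1 (2.77) were up-regulated DEGs. Irf1 was at 1.41 to 6.09 CPM with CpG and at 20.4 to 26.0 CPM with CpG + IFNα. Ciita, whose samples in these groups overlapped, was not higher with the combination.

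Genes that prepare antigen and cut the invariant chain fell with CpG as well, by less than the class II genes. Of 9 listed, 7 were down-regulated DEGs with CpG and none was up-regulated (median log2 fold change -1.85). Ifi30, the reductase GILT, was at 358 to 415 CPM in unstimulated cells and 49.4 to 68.3 CPM with CpG (log2 fold change -2.69). Ctss, cathepsin S, which makes the last cuts in the invariant chain, was at 727 to 810 CPM in unstimulated cells, 996 to 1275 CPM with IFNα, 191 to 229 CPM with CpG and 294 to 321 CPM with CpG + IFNα. Ctsl (-2.69), Lgmn (-2.54), Ctsh (-1.9999), Ctsb (-1.64) and Ctsd (-1.45) completed the DEGs. Ctsz (0.30) and Sppl2a (-0.58), the protease that removes the invariant chain's end fragment, stayed under the fold change of 2. With IFNα no gene of the list was a DEG.

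Of 13 genes for turnover and surface partners of class II, 12 were tested, with 7 down-regulated DEGs and 1 up-regulated DEG with CpG. Marchf1, the ubiquitin ligase that removes class II from the surface of B cells, fell from 135 to 145 CPM in unstimulated cells to 4.95 to 10.4 CPM with CpG (log2 fold change -4.16, SE 0.22, adjusted p = 6.21e-20). It was at 145 to 196 CPM with IFNα and at 3.79 to 9.92 CPM with CpG + IFNα. Cd79a (-4.12) and Cd79b (-3.17), the signalling chains of the B cell receptor, and Cd86 (-3.73), Cd37 (-2.29) and Cd53 (-1.93) were also down-regulated DEGs. The up-regulated DEG was the costimulatory ligand Cd80, at 0, 1 and 1 counts in unstimulated samples and 3, 15 and 9 counts with CpG, too few for a fold. Cd86, another costimulatory ligand, was at 3.47 to 6.70 CPM with CpG and 28.0 to 38.0 CPM with CpG + IFNα (log2 fold change 2.70), whereas no class II gene was higher with the combination than with CpG alone.

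**Figure D5:**
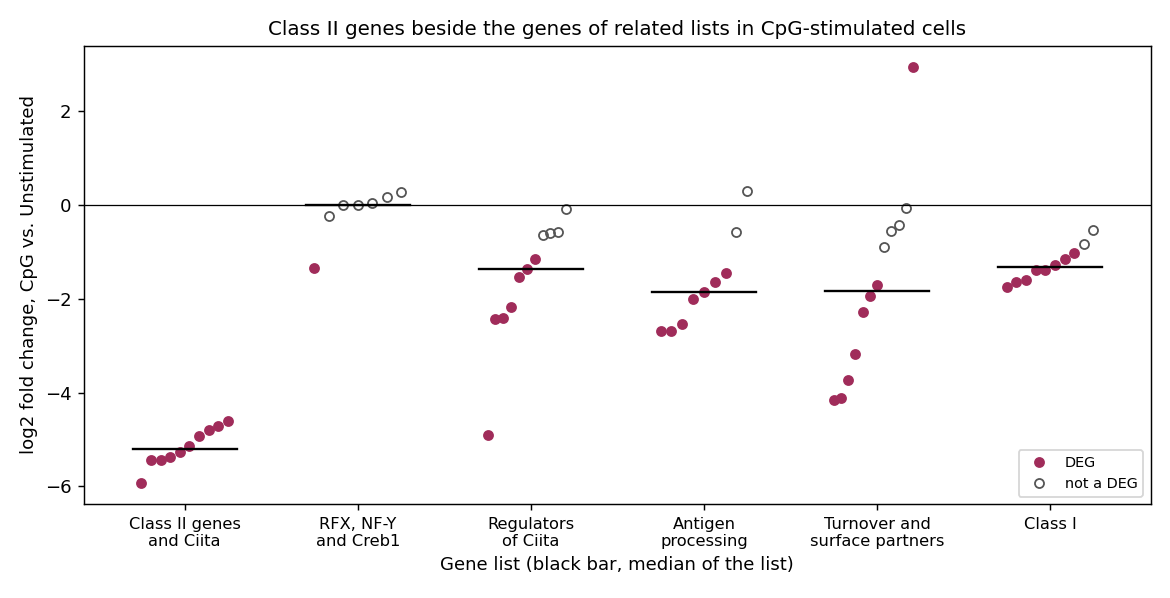
Log2 fold change in CpG against unstimulated cells (edgeR) of the class II genes with Ciita and of the tested genes of 5 related lists; filled points are DEGs and black bars are medians. The class II genes lie between -5.93 and -4.60, while the medians of the other lists lie between -1.85 and 0.01.

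The genes whose pattern over the 4 groups was most like that of H2-Aa and of Ciita were sought among all genes tested. Likeness was the root mean square difference between log2 fold changes in the 3 comparisons with unstimulated cells, which share those samples. The nearest genes to H2-Aa were H2-Eb1 (0.05) and H2-Ob (0.09), followed by Lpcat2 (0.10) and E330020D12Rik (0.17), then H2-DMb2 (0.18), Gpr146 (0.19), Sh2d3c (0.19), Rdh12 (0.19) and Lrrk2 (0.23). Of the other members, H2-DMa was at place 18, H2-Ab1 at 19, H2-DMb1 at 40, Ciita at 42, Cd74 at 45 and H2-Oa at 68 among the 9431 genes. Lpcat2, E330020D12Rik and Gpr146 were at 12.2 to 26.5 CPM in unstimulated cells and below 1 CPM on average in both groups with CpG, so that their folds are uncertain.

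Among the nearest genes to Ciita were Acss1 (0.08), Rasgrp2 (0.09), Cnr2 (0.25), Cd74 (0.27), Pgghg (0.28) and Rin3 (0.29). Rasgrp2, the most abundant of those that are no members, was at 181 CPM in unstimulated cells, 168 CPM with IFNα, 8.01 CPM with CpG and 4.25 CPM with CpG + IFNα (means, n = 3). Ciita went through 547, 518, 22.8 and 13.7 CPM in the same order. H2-Oa was the member least like Ciita, at place 366 with a difference of 1.32.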

How the data were processed

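FO B cell RNA was measured in 12 samples by BRB sequencing. The table that the authors deposited holds UMI counts for each gene, not normalized. Per the submitters' processing notes and the methods, barcodes were extracted with UMI-tools 1.1.2, reads trimmed with Trim Galore 0.6.7, mapped to GRCm38 with HISAT2 2.2.1, and assigned to genes with featureCounts 2.0.1. The annotation release, strand setting and handling of reads with several hits are not given in the sources used here. Gene positions are from GENCODE M21, which holds all 22561 identifiers.

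Counts were scaled by TMM and filtered by group with filterByExpr of edgeR 4.0.16 (R 4.3.3). The 9431 genes left were tested by the quasi-likelihood F-test with robust dispersions, all 12 samples fitted together (8 residual degrees of freedom), in 6 comparisons. Genes past adjusted p = 0.1 and a 2-fold change were DEGs. Totals of 922450 to 2923865 counts limit genes near 3 counts per sample. No replicate was a copy of another (chi-square over degrees of freedom 1.9 to 6.31 between replicates). On simulated counts for CpG against unstimulated cells, 100% of 200 changed genes were recovered with 6 false DEGs among 9259 genes. The changes planted there were all well over 2-fold, in genes far above 3 counts, with the same spread for all genes. The recovery therefore says nothing about genes near the 2-fold limit or with few counts. The members, gene lists (RFX and NF-Y factors, regulators of Ciita, antigen processing, turnover and partners, other class II, class I, neighbours, cell type markers) and tests were chosen with earlier results of these data known. Genes named are the members, genes of these lists, and the 6 genes nearest in pattern to H2-Aa and to Ciita, some of which are not reported here. Alternatives were other scalings, filters and thresholds, DESeq2 1.42.0, limma-voom (limma 3.58.1), a test against a fold change of 2, fits of the compared groups alone, counts thinned to the smallest total, replicate number added as a block, H2-DMb1 and H2-DMb2 summed, and each sample left out in turn. A deposited list of sample barcodes holds no measurements.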

Additional observations from a re-analysis of the deposited data

Results flagged for a closer look

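By edgeR's test of the difference (adjusted p under 0.1 and a difference over 1 on the log2 scale), 11 of the 69 tested genes of the other lists, markers of cell types included, responded differently to IFNα depending on CpG, as did 6.27% of all genes tested. None of the 10 class II genes passed, which is near the share of all genes, and whether they differ from the lists was not tested. The effect of IFNα was more positive with CpG than without it for Cd86 (difference 2.24), Irf1 (2.01), Cd83 (1.69), Irf4 (1.58), Cd40 (1.42) and Socs1 (1.11), all activation or interferon-linked genes, and for the myeloid and dendritic cell markers Flt3 (2.39, 0 to 3 counts per sample with IFNα) and Cd68 (2.07, 0 to 6 counts). It was more negative with CpG for H2-Eb2 (-1.37), Sppl2a (-1.01) and Cd79b (-1.01). H2-Eb2 is the class II gene among them, and its difference had an adjusted p of 0.0333. It was not a DEG for this difference without CpG replicate 2 (-1.20, adjusted p = 0.127), without CpG + IFNα replicate 1 (-1.13, adjusted p = 0.102) or with counts thinned to the smallest total (-0.90, adjusted p = 0.409).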

How the results depend on the processing

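All 10 class II genes were down-regulated DEGs in CpG against unstimulated cells, in CpG + IFNα against unstimulated cells and in CpG + IFNα against IFNα under every alternative run (9 of 9 where H2-DMb1 and H2-DMb2 were summed). For H2-Aa the log2 fold change with CpG ranged from -5.45 to -5.32. In IFNα against unstimulated cells, the count of 1 DEG was 0 with TMM factors computed without the members, with every gene that had a count, with a log2 fold change over 2, with a test against a fold change of 2 and with H2-DMb1 and H2-DMb2 summed, and 8 with the adjusted p only. It was 0 to 1 with a sample left out. In CpG + IFNα against CpG, the count of 2 DEGs was 0 with a log2 fold change over 2 and with a test against a fold change of 2, 1 with TMM without the members, with thinned counts and with both H2-DMb genes summed, 8 with the adjusted p only, and 1 to 2 with a sample left out. For the difference between the effects of IFNα it was 0 to 1 with a sample left out and 0 otherwise. The signs of values near 0 turned when a sample was left out: Ciita with IFNα ranged from -0.17 to 0.0267, and, for the difference between the effects of IFNα, H2-DMb1 ranged from -0.18 to 0.0116, H2-Oa from -1.44 to 0.18 and H2-Ob from -0.19 to 0.20. The cause was not tested. The labels do not say what a replicate number shares. Deviations of same-numbered samples correlated at -0.0164 to 0.273 between the stimulated groups (7 of 9 pairs over 0.1, all 3 between IFNα and CpG + IFNα) and at -0.121 to 0.0267 between these and unstimulated samples (0 of 9), and 8 of 12 samples correlated best with their own number. The erythroid gene Hbb-bs was highest in replicate 1 and lowest in replicate 3 of each of the 4 groups. With the replicate number as a block, 1, 10, 10, 2, 10 and 0 members were DEGs in the 6 comparisons, as without it, and H2-Eb1 with IFNα passed the adjusted p (0.079, against 0.117 without the block). Without rRNA and mitochondrial genes in the total, the class II share was 3.64% in unstimulated cells, 2.61% with IFNα and 0.0795% with CpG + IFNα. With a sample left out the shares stayed within the spread between replicates. Over all genes, the fold change limit of 2 on the log2 scale left 251, 1675, 1824, 165, 1695 and 155 DEGs in the 6 comparisons, the adjusted p only gave 2314, 7056, 7188, 1453, 7147 and 1285, and the main thresholds 811, 4302, 4328, 468, 4170 and 591. The test against a fold change of 2 gave 320 with IFNα, 195 in CpG + IFNα against CpG and 92 for the difference. TMM without the members moved the median of all genes in CpG + IFNα against unstimulated cells to 0.13. Depth limits H2-Oa, H2-DMb1 and H2-DMa with CpG + IFNα, at 1 to 29 counts per sample.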
